A study of Mus musculus with 12 samples.

Results

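Genes that control the deposition of mineral were followed through the serial differentiation of cartilage progenitor pellets. They are Alpl, Phospho1, Enpp1, Ank, Phex, Slc20a1, Slc20a2, Mgp and Fgf23, chosen by symbol, and all 9 were found among the 28244 genes listed. RNA was sequenced from pellets of C57/BL6 mouse pups aged 5 or 6 days. The cells had been released with collagenase from femoral heads and condyles and from tibial heads. Every pellet received chondrogenic medium for 7 days, and the medium was osteogenic from then on. D7 pellets were harvested at day 7, before the change, and D8, D10 and D28 pellets after 1, 3 and 21 days in osteogenic medium, with 3 libraries at each time point and 12 in all. No pellets kept in chondrogenic medium beyond day 7 are among these libraries, so the change of medium and the time in culture cannot be told apart. The labels do not say whether replicates came from separate litters or cell preparations, so p-values measure the spread between these libraries only.

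Mineral forms in cartilage and bone when phosphate and calcium precipitate in matrix vesicles and along collagen, and inorganic pyrophosphate stops the crystals from growing. Pyrophosphate is supplied from ATP by the ectoenzyme ENPP1 and brought out of the cell with the help of ANK, and the phosphatase encoded by Alpl splits it into phosphate. PHOSPHO1 frees phosphate inside the vesicles, the transporters encoded by Slc20a1 and Slc20a2 carry phosphate into cells, the matrix protein MGP holds back calcification, and PHEX and FGF23 belong to the hormonal control of phosphate by bone.

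Promoter sequences are shown for 3 members whose levels moved most in the first 3 days of osteogenic medium, Alpl downwards and Ank and Slc20a1 upwards. Each runs from 250 bases before to 50 bases after an annotated transcript start in RefSeq (GRCm38.p6), is written 5′ to 3′ on the strand of the gene, and has motif matches in capitals. The Alpl promoter is chr4:137796335-137796634 on the minus strand, the Ank promoter chr15:27466427-27466726 on the plus strand and the Slc20a1 promoter chr2:129198523-129198822 on the plus strand.
Alpl: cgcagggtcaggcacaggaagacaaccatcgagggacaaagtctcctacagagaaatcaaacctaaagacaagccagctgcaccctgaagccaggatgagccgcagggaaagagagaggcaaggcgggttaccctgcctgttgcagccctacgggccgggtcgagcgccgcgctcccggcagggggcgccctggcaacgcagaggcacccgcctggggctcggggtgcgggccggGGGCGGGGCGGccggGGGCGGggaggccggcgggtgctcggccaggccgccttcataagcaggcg
Ank: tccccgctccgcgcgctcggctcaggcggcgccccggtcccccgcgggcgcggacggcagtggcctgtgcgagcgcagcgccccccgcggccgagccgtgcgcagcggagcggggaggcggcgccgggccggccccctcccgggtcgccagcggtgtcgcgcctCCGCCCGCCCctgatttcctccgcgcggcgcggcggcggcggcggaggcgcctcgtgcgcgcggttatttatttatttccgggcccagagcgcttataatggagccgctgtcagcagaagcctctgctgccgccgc
Slc20a1: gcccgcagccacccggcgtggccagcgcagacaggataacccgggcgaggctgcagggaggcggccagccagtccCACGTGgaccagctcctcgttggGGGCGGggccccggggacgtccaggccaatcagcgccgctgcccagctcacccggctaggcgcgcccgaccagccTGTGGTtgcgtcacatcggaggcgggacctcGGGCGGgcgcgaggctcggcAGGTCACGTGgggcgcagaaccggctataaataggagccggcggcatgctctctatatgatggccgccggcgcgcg
Short motifs were searched on both strands, TGANTCA (AP-1), TGTGGT (Runt), AGGTCA (a vitamin D receptor half-site), CACGTG (E-box) and GGGCGG (GC box). The Alpl promoter held 3 matches to the GC box and the Ank promoter 2, and neither held a match to the other motifs. The Slc20a1 promoter shown held 2 GC boxes, 2 E-boxes, 1 Runt motif and 1 half-site, and the half-site overlaps the second E-box. Of 32851 promoters of the same length, 35.7% held a GC box, 7.15% an E-box, 16.8% a Runt motif, 16.3% a half-site and 7.81% an AP-1 motif. A match describes letters in these windows only. A second annotated Alpl promoter, used from a start within the gene, held 1 half-site and no GC box. A second annotated Slc20a1 promoter (chr2:129206846-129207145) held 1 GC box and 1 half-site, with no E-box or Runt motif. The deposited values do not separate the transcripts of a gene. Promoters of Phospho1, Enpp1, Phex and Fgf23 were also searched, and of these Phospho1 alone held an AP-1 match.

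The deposited value of a gene is the log2 of its equalized read count plus 1, and every level below is on that scale unless stated per kb. Values were compared between time points with limma, and a gene was called when its absolute log2 fold change was at least 1 and its Benjamini-Hochberg adjusted p over 17674 tested genes was under 0.05. The tested members numbered 8, all of them above the filter in every library, and Fgf23 was not. Library totals are not kept in equalized values. Relative depth, taken from the lowest levels, ranged from 0.730 in D10 replicate 1 to 1.31 in D28 replicate 1. Of the labelled cell type, 7 of 7 chondrocyte markers were detected at each time point. In bulk RNA, fewer cells of a type and less RNA per cell cannot be told apart.

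Between D7 and D8, 1 of the 8 tested members rose (Ank) and 1 fell (Alpl), where 3.23% of all genes tested were called higher and 3.81% lower. At D10 against D7, 3 rose (Ank, Slc20a1 and Phex) and 1 fell (Alpl), with 8.50% and 10.4% of all genes. From D8 to D10 only Alpl was called, lower, with 5.58% of all genes called lower and 4.08% higher. The count of members called higher there was 0 with limma and 0 under the rule of the study, and 3 members (Slc20a1, Ank and Phex) were higher at an unadjusted p under 0.05. At D28 against D7, Mgp and Phex rose and Slc20a1 fell (8.63% of all genes higher and 8.66% lower). At D28 against D8, Mgp and Phex rose and Slc20a1 and Ank fell (10.0% and 9.70%). At D28 against D10, Alpl and Mgp rose and Slc20a1, Ank and Phospho1 fell (13.8% and 13.7%). The members' median log2 fold change was 0.47 at D8 and 0.92 at D10 against D7, and -0.20 at D28 against D10, while the medians over all genes were 0.03, 0.05 and -0.10. Comparisons that share a time point share its libraries.

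**Figure D1:**
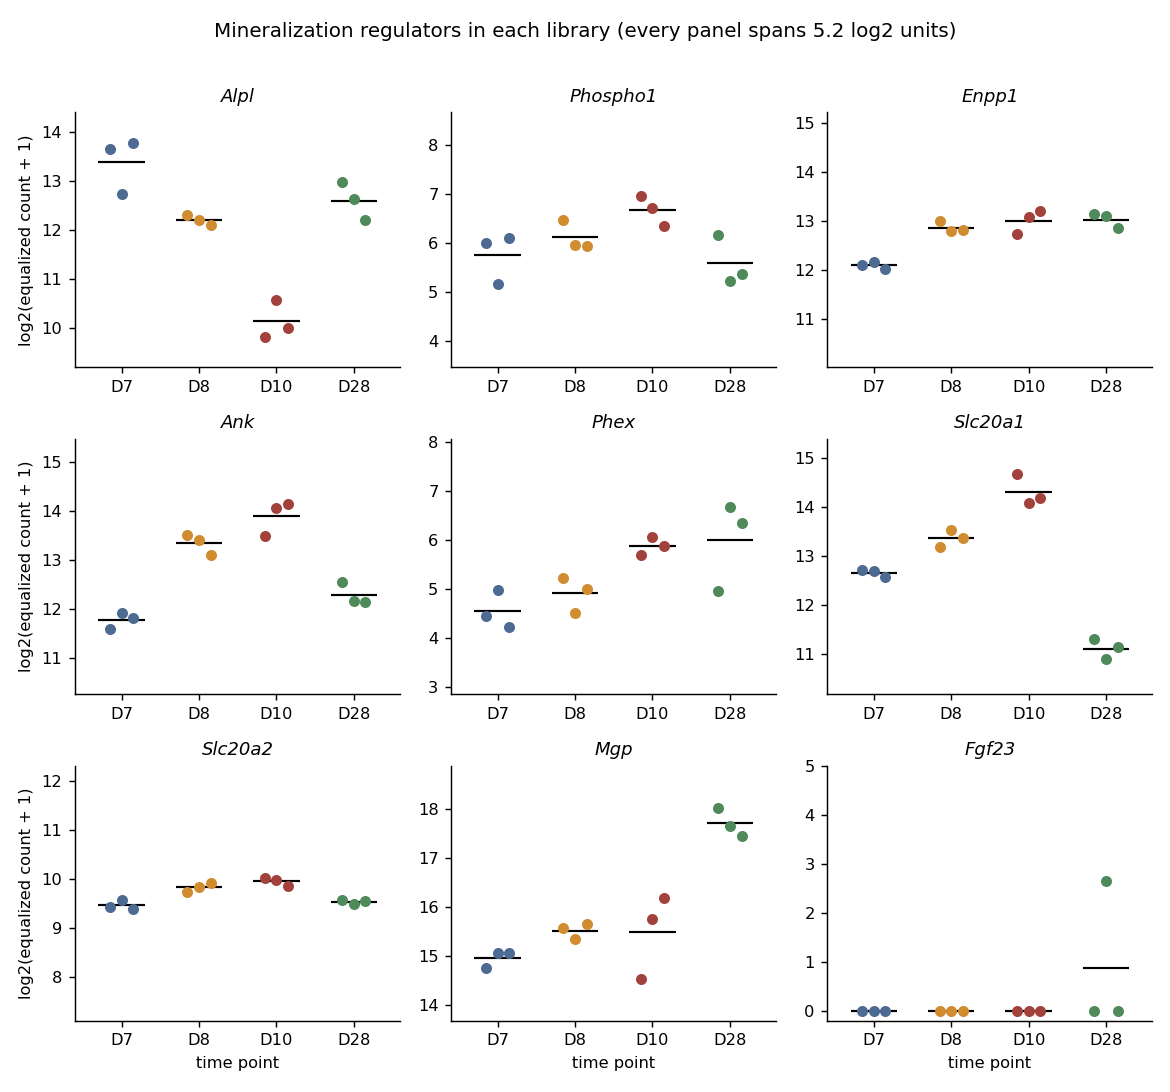
Deposited level (log2 of the equalized count plus 1) of each of the 9 members in each of the 12 libraries, with points for replicates 1 to 3 from left to right, horizontal lines for the means, and the same span of log2 units in every panel. Alpl is lowest at D10, between 9.83 and 10.58, whereas Slc20a1 and Ank are highest there and Mgp is highest at D28.

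Alpl encodes tissue-nonspecific alkaline phosphatase, the enzyme that removes pyrophosphate, and lies on chromosome 4 of GRCm38 (137741733 to 137796384, minus strand). Its level was 13.67, 12.74 and 13.79 in D7 replicates 1, 2 and 3, and 12.31, 12.22 and 12.11 at D8. It was 9.83, 10.58 and 10.01 at D10 and 12.98, 12.64 and 12.20 at D28. The 3 D10 libraries lay below all others and no D8 library reached the lowest D7 library, while D28 overlapped both D7 and D8. Alpl fell by 1.19 at D8 against D7 on the log2 scale (standard error 0.25, adjusted p = 0.0034, limma). It then fell by a further 2.07 to D10 (adjusted p = 3.93e-05, limma), so that at D10 it stood 9.56-fold below D7. At D28 it was 5.54-fold above D10 (log2 fold change 2.47, adjusted p = 7.98e-07, limma). In the order D7, D28, D8 and D10, the step from D28 to D8 was not called (0.40, 95% interval -0.14 to 0.93), nor was that from D7 to D28 (-0.79), which passed the adjusted p (0.0219, limma) but not the fold. Single libraries decided some of these results. Without D7 replicate 3 the change at D8 was -0.99 and not called, and without D7 replicate 2 that of D28 against D7 was -1.12 and called. In rank, Alpl was between the 204th and the 449th highest gene in D7 libraries and between the 2670th and the 4414th at D10.

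Markers of chondrocytes and osteoblasts were called lower at D10 in part. Of 7 chondrocyte markers, 5 were called lower at D10 against D7 and 0 higher, while Col2a1 and Sox9 were not called. Col2a1 made up between 75.0% and 86.7% of the summed unlogged level of the list in each library, and ranked first of all genes in every D7, D8 and D28 library and second in every D10 library. Its equalized value is therefore the same in all libraries of a time point, and the sum was taken without it after this was seen. The other 6 markers summed to between 460757 and 479536 at D7, 358674 and 661552 at D8, 146690 and 191682 at D10 and 384972 and 456944 at D28. Of 5 osteoblast markers, 3 were called lower at D10 and 1, Bglap, higher, and the sum went from between 356783 and 561738 at D7 and 152927 and 334838 at D8 to between 107627 and 195807 at D10, with 172635 to 191566 at D28. Most of that sum was Col1a1, with means of 18.72, 17.62, 17.21 and 17.30 at D7, D8, D10 and D28. No other marker of the list had a mean above 15.50. The sum of 3 hypertrophic chondrocyte markers was between 181461 and 222382 at D7, 165963 and 273039 at D8, 210615 and 341079 at D10 and 56910 and 98352 at D28, and 2 of them, Ihh and Mmp13, were called lower at D10, while Col10a1 had a higher mean there (18.10 against 17.27 at D7, not called). Up to D10 this sum was mostly Col10a1, and at D28 Mmp13 had a higher mean than Col10a1 (15.46 against 14.28). At D8 against D7, where Alpl was already called lower, 0 of the 7 chondrocyte markers were called with limma and 1, Matn1, had an unadjusted p under 0.05 (higher, 0.66), while Ibsp, Col1a1 and Mmp13 were called lower and Bglap higher. Their part in the change of Alpl was not tested.

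Phospho1, the phosphatase of matrix vesicles that acts on phosphocholine and phosphoethanolamine, lies on chromosome 11 (95824499 to 95832140, plus strand) and was weakly expressed. Its level was 5.99, 5.16 and 6.10 at D7 and 6.46, 5.96 and 5.93 at D8. It was 6.97, 6.71 and 6.35 at D10, and 6.16, 5.23 and 5.36 at D28. The D10 libraries lay above all D7 and D28 libraries but overlapped those of D8. These levels stand for between 38 and 104 reads per library. The change from D7 to D10 was 0.92 (standard error 0.32, adjusted p = 0.0319, limma), short of the fold, and reached it, at 1.04 to 1.10, without D7 replicate 1, D7 replicate 3 or D10 replicate 3. Phospho1 fell by 1.09 from D10 to D28 (adjusted p = 0.010, limma), 2.13-fold. That call was lost under median-of-ratios scaling (-0.96) and without D10 replicate 1 (-0.95), D28 replicate 2 (-0.92) or D28 replicate 3 (-0.98). Alpl and Phospho1, both sources of phosphate, stood at opposite ends at D10, with Alpl at its lowest mean and Phospho1 at its highest. Phospho1 at D10 was not called against D7 or D8, whereas Alpl was called against both. Phospho1 lies within the span of Zfp652 on the same strand and overlaps Abi3 on the other, and the sources used here do not state how HTSeq treated strand or shared reads. Zfp652 was between 9.62 and 10.31 and Abi3 at most 3.58.

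Enpp1, which makes pyrophosphate from extracellular ATP, lies on chromosome 10 (24637914 to 24712159, minus strand). It was at 12.11, 12.18 and 12.04 in the D7 libraries and at 13.00, 12.80 and 12.82 at D8. The values were 12.75, 13.09 and 13.21 at D10 and 13.14, 13.11 and 12.86 at D28. Every library in osteogenic medium was above every D7 library, and D8, D10 and D28 overlapped each other. Against D7 the difference was 0.77 at D8 (standard error 0.13, adjusted p = 0.000501), 0.91 at D10 (adjusted p = 3.32e-05) and 0.93 at D28 (adjusted p = 2.82e-05, limma), so the adjusted p passed each time and the fold of 1 did not. Without D10 replicate 1 the value at D10 was 1.04, and without D28 replicate 3 that at D28 was 1.02, both past the fold. Between D10 and D28 the difference was 0.02 (95% interval -0.25 to 0.29).

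Ank encodes the membrane protein mutated in mice with progressive ankylosis, through which ATP and pyrophosphate leave the cell. It lies on chromosome 15 (27466677 to 27594909, plus strand). Its D7 libraries were at 11.59, 11.92 and 11.82, and those of D8 at 13.51, 13.42 and 13.10. At D10 the values were 13.49, 14.05 and 14.14, and at D28 12.54, 12.17 and 12.13. The D8 and D10 libraries lay above all D28 libraries, which in turn lay above all D7 libraries. Ank rose 2.96-fold at D8 (log2 fold change 1.57, standard error 0.17, adjusted p = 1.85e-05, limma) and stood 4.33-fold above D7 at D10 (2.12, adjusted p = 1.6e-07). The step from D8 to D10, 0.55, was not called. By D28 Ank had fallen 3.05-fold from D10 (-1.61, adjusted p = 1.31e-06, limma) and was 0.51 above D7, which was not called. The fall of 1.06 from D8 to D28 was called, but not under median-of-ratios scaling (-0.95) or without D8 replicate 1 (-0.98) or D28 replicate 3 (-0.99). The gene Otulin overlaps Ank on the opposite strand and ranged only from 8.86 to 9.47.

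**Figure D2:**
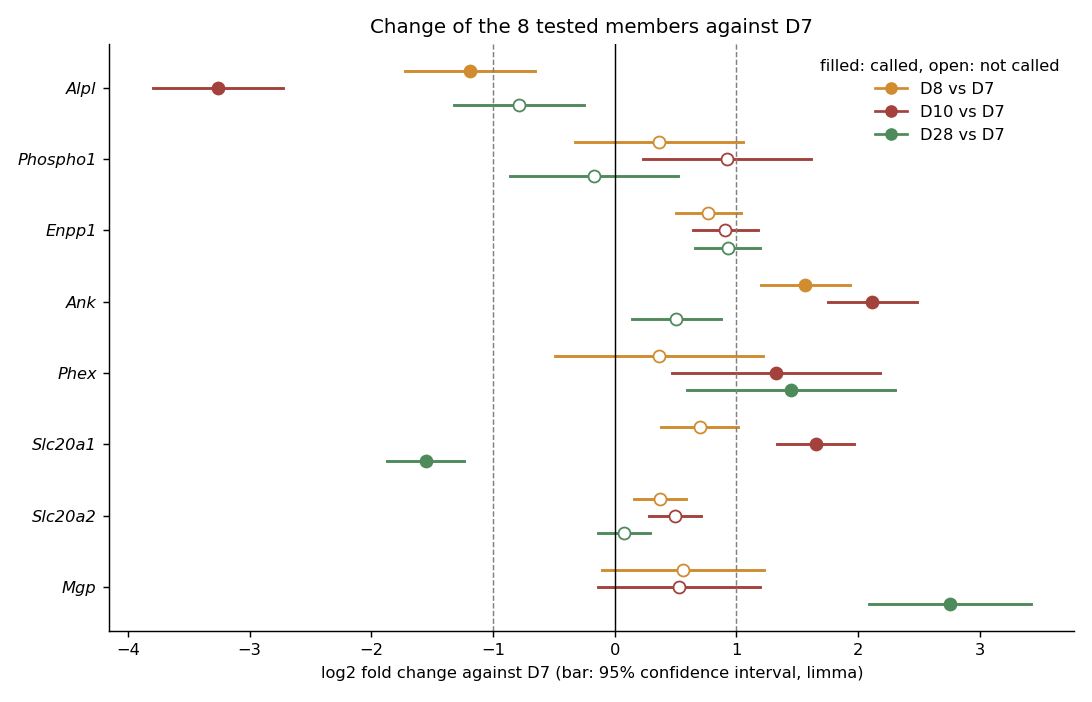
Log2 fold change against D7 (horizontal axis) of the 8 tested members at D8, D10 and D28, with limma 95% confidence intervals, filled points for calls, open points for changes not called, and dashed lines at a log2 fold change of 1 in each direction. Alpl reaches -3.26 at D10 where Ank reaches 2.12 and Slc20a1 1.65, and Mgp reaches 2.75 at D28.

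In the first 3 days of osteogenic medium Alpl, which removes pyrophosphate, fell while Ank, which brings it out of the cell, rose, and Enpp1 was higher than at D7 without reaching the fold. Per kb of exon, Alpl stood between 3.74 and 8.55 times the level of Enpp1 in the D7 libraries and between 1.55 and 1.70 times at D8. At D10 the ratio was between 0.276 and 0.446, and at D28 between 1.61 and 2.27. Per kb, Alpl was below Enpp1 in the D10 libraries only, whereas on the log2 scale without length it was below Enpp1 in every D8, D10 and D28 library. Against Ank, the per-kb ratio of Alpl was 1.58 to 3.79 at D7, 0.388 to 0.449 at D8, 0.0511 to 0.0805 at D10 and 0.939 to 1.24 at D28. These ratios use the same values as the fold changes above and are a description without a test.

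**Figure D3:**
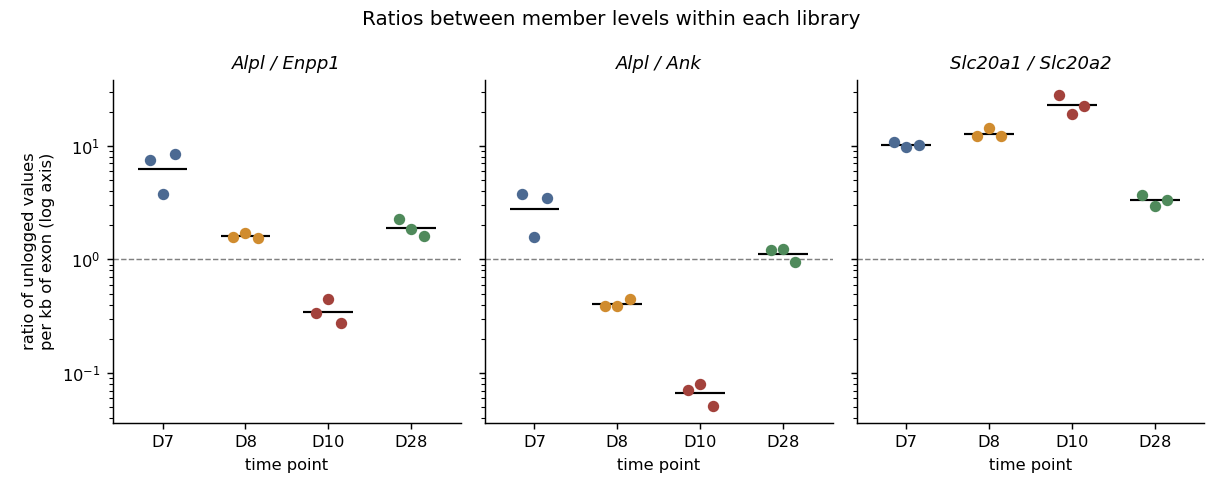
Ratio of unlogged values per kb of exon between pairs of members within each library, on a log axis with a dashed line at 1, points for replicates and lines for geometric means. Alpl over Enpp1 and Alpl over Ank are lowest at D10, where Slc20a1 over Slc20a2 is highest, between 18.9 and 27.8.

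Slc20a1 encodes PiT-1, a sodium-dependent phosphate transporter, and lies on chromosome 2 (129198764 to 129211616, plus strand). It was at 12.70, 12.69 and 12.57 at D7, and at 13.18, 13.52 and 13.36 at D8. At D10 it was at 14.66, 14.07 and 14.19, and at D28 at 11.29, 10.89 and 11.13. No time point overlapped another. The difference at D8 was 0.70 (adjusted p = 0.00369, limma), short of the fold. At D10 Slc20a1 had risen 3.14-fold against D7 (1.65, standard error 0.15, adjusted p = 4.81e-07, limma). It then fell 9.22-fold from D10 to D28 (-3.20, adjusted p = 1.82e-10, limma), to 2.93-fold below D7 (-1.55, adjusted p = 9.57e-07). The step from D8 to D10, 0.95, passed the fold without D8 replicate 2 (1.04), D10 replicate 2 (1.07) or D10 replicate 3 (1.01). A noncoding gene on the opposite strand, 9830144P21Rik, overlaps Slc20a1 and had means of 6.64, 6.99, 7.81 and 5.41 at D7, D8, D10 and D28. It followed the same order at a much lower level, and reads of the pair cannot be told apart where strand was not used in counting.

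Slc20a2 encodes the related transporter PiT-2, on chromosome 8 (22476788 to 22569612, plus strand). Its level was 9.42, 9.57 and 9.38 at D7 and 9.74, 9.85 and 9.92 at D8. It was 10.02, 9.99 and 9.86 at D10, and 9.57, 9.49 and 9.55 at D28. The D8 and D10 libraries lay above those of D7 and D28, in a range of less than 1 log2 unit. The difference at D10 against D7 was 0.50 (95% interval 0.28 to 0.71, adjusted p = 0.000983, limma), the largest of its 6 comparisons in size, and none reached the fold. Per kb, Slc20a1 was between 9.68 and 10.8 times the level of Slc20a2 at D7 and between 18.9 and 27.8 times at D10. At D28 the ratio was 2.93 to 3.68. Smim19, on the opposite strand of Slc20a2, was between 8.14 and 9.05.

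Markers of osteoclasts and macrophages moved in part with Slc20a1 and in part against it. The summed unlogged level of Acp5, Ctsk and Calcr was between 4764 and 5765 at D7, 11701 and 13125 at D10 and 5379 and 7320 at D28. Nearly all of it was Ctsk, with means of 12.26, 13.57 and 12.45, against 7.53, 7.97 and 8.66 for Acp5. Calcr, the calcitonin receptor that marks mature osteoclasts, was at 0 in every library, while Ctsk was called higher at D10 against D7 and lower at D28 against D10, as Slc20a1 was. Acp5 was called higher at D28 against D7, where Slc20a1 was at its lowest. The sum of 4 macrophage markers was between 187 and 243 at D7, between 463 and 966 at D10 and between 228 and 857 at D28. Most of this sum at D7 and D10 was Cd68. Of the 4 markers, Cd68 (means of 7.32, 9.20 and 8.11 at D7, D10 and D28) was called higher at D10 against D7 and lower at D28 against D10. Adgre1 (4.98, 2.80 and 5.87) was called lower and then higher, and Csf1r (4.79, 3.29 and 5.92) was called higher at D28 against D10, both opposite to Slc20a1. The part of such cells in the level of Slc20a1 was not tested.

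Mgp encodes matrix Gla protein, an inhibitor of calcification made by chondrocytes and vascular smooth muscle cells and activated by vitamin K-dependent carboxylation. It lies on chromosome 6 (136872435 to 136875823, minus strand). The D7 libraries were at 14.76, 15.06 and 15.06, and the D8 libraries at 15.56, 15.34 and 15.64. The D10 libraries were at 14.53, 15.75 and 16.18, and the D28 libraries at 18.02, 17.65 and 17.46. All D28 libraries lay far above the rest, and D10 replicate 1 lay below every other library. Mgp rose 6.75-fold at D28 against D7 (2.75, standard error 0.31, adjusted p = 5.04e-06, limma) and 4.68-fold against D10 (2.23, adjusted p = 2.15e-05). At D28 it was the 6th, 8th and 10th highest gene of its 3 libraries, and at D7 the 94th, 73rd and 73rd. Changes among D7, D8 and D10 were not called. D10 replicate 1, the library of lowest depth (0.730), set the value of D10 against D7, which was 0.53 with it and 1.01, a call, without it.

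Most smooth muscle and adipocyte markers, and some of chondrocytes, were called higher beside Mgp at D28. Of 4 smooth muscle and pericyte markers, 3 were called higher at D28 against D7, and their summed unlogged level was between 678 and 782 at D7 and between 3159 and 4190 at D28. Of 6 adipocyte markers all 6 were called higher, with sums between 3937 and 4701 at D7 and between 41052 and 55913 at D28. Against D10, 3 of the smooth muscle, 6 of the adipocyte and 4 of the 7 chondrocyte markers (Acan, Matn1, Hapln1 and Comp) were called higher, while against D7 Matn1 alone of the chondrocyte markers was called higher and Col9a1 lower. The part of such cells in its rise was not tested.

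Phex encodes an endopeptidase of osteoblasts and osteocytes whose loss raises FGF23 and wastes phosphate, and lies on the X chromosome (157162075 to 157415312, minus strand). Its values were 4.43, 4.97 and 4.22 at D7, and 5.22, 4.51 and 4.99 at D8. They were 5.68, 6.05 and 5.87 at D10, and 4.95, 6.68 and 6.34 at D28. The D10 libraries lay above all D7 and D8 libraries, and D28 replicate 1 lay within the range of both. These levels rest on 13 to 33 reads at D7, 18 to 33 at D8, 26 to 47 at D10 and 47 to 130 at D28. For the lowest, 13 reads, the exact Poisson 95% interval is 6.92 to 22.2, counting error only. Phex rose 2.50-fold at D10 against D7 (1.32, standard error 0.40, adjusted p = 0.0152, limma), and the call was lost without D7 replicate 3 (1.16). The rise at D28 against D7 was 1.45 (adjusted p = 0.0101, limma), lost under the rule of the study and without D28 replicate 2 (1.10). That of D28 against D8, 1.08, was lost under 4 other settings of the filter, the pseudocount, the low values and the test, and without D8 replicate 2 (0.88), D8 replicate 3 (1.12), D28 replicate 2 (0.74) or D28 replicate 3 (0.90).

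The summed unlogged level of 4 osteocyte markers was between 626 and 1007 at D7, 964 and 1365 at D8, 1742 and 1946 at D10 and 696 and 1092 at D28. Pdpn made up most of that sum at each time point. Dmp1, an acidic matrix protein of osteocytes, was called higher at D8, D10 and D28 against D7, and Pdpn had its highest mean at D10 (10.48, against 9.54 at D7, not called). Sost, which encodes sclerostin, held at most 3 reads in each library, and Mepe at most 3 in each D8 and D10 library. The part of osteocyte-like cells in the level of Phex was not tested. Dmp1 was at 6.15, 8.11 and 8.06 at D28, so that D28 replicate 1 was the lowest of its time point in Dmp1 as in Phex. In each of the 7 other tested members the same library was the highest of D28. Without it, the members called numbered 3, 4 and 5 at D28 against D7, D8 and D10, equal to the counts with it.

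Fgf23, the phosphate-lowering hormone of osteocytes, lies on chromosome 6 (127072902 to 127081408, plus strand). It was at 0 in 11 libraries and at 2.66, a level of 8 reads (exact Poisson 95% interval 3.45 to 15.8), in D28 replicate 2. A count of 0 allows up to 3 reads, so expression below that level was not detectable at this depth. Because libraries differ in depth, 2.66 is also below the highest level of 3 reads (2.87), and no fold is given. Replicate 2 of D28 also held the highest Phex value.

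Compared per kb of exon, the members kept a wide range at each time point. Mgp was first throughout, with a median unlogged level per kb of 28718 at D7 and 173565 at D28. Alpl was the second at D7 (3230 per kb) and D28 (1586), the fourth at D8 (1182) and the fifth at D10 (255). Ank took the second place at D8 (3030) and D10 (4707) and was the fourth at D7 (1003). The library ranges of Slc20a1 and Ank met neither at D7 nor at D8, where they were neighbours, but overlapped at D10, and those of Alpl and Ank overlapped at D28. Slc20a2, Phospho1, Phex and Fgf23 held the sixth to ninth places at each time point.

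Across the 12 libraries, the genes most like each member were ranked by Pearson's r among 12181 genes, as a description in which all points share the 4 time points. Nearest to Alpl were Pth1r (r = 0.988), the receptor for parathyroid hormone and PTHrP, Clec11a (0.986) and Rin3 (0.984). Pth1r had means of 13.17, 12.33, 10.31 and 12.40 at D7, D8, D10 and D28, an order equal to that of Alpl. The nearest to Ank were Cpt1a (0.986), the carnitine palmitoyltransferase of fatty acid oxidation, Syn1 (0.983) and Bnip2 (0.980). The nearest to Slc20a1 were Itgb3 (0.989), the integrin beta-3 subunit, Nav2 (0.989) and Itprip (0.987). Itgb3 went from a mean of 9.72 at D7 to 12.05 at D10 and 7.55 at D28. The leading genes were Car5b for Mgp (0.979), Rwdd2b for Slc20a2 (0.968), Coprs for Enpp1 (0.963), Limk1 for Phospho1 (0.933) and Caprin2 for Phex (0.903). Among the members themselves, r was highest between Ank and Slc20a2 (0.90) and lowest between Alpl and Slc20a2 (-0.86) and Alpl and Ank (-0.84).

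Other genes of phosphate handling and mineral deposition were listed by role, 35 in all, and 31 were tested. At D10 against D7, 3 of the 31 rose and 9 fell, where 8.50% of all genes tested were called higher and 10.4% lower. At D28 against D10, 14 rose and 4 fell (13.8% and 13.7% of all genes). Their median log2 fold change was -0.27 and 0.87, against 0.05 and -0.10 over all genes. At D8 against D7, 3 rose and 3 fell (3.23% and 3.81%), and at D28 against D7, 9 rose and 2 fell (8.63% and 8.66%). From D8 to D10, 1 rose and 3 fell (4.08% and 5.58%), and at D28 against D8, 11 rose and 3 fell (10.0% and 9.70%). These shares hold for the counts of each role too. Cell type markers moved in the same comparisons. Of 7 chondrocyte markers, 5 were called lower at D10 against D7 and 4 higher at D28 against D10, and of 6 adipocyte markers, 5 were called lower and then 6 higher. Their part in the counts was not tested.

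Of 8 genes of extracellular pyrophosphate and ATP, 3 fell and 0 rose at D10 against D7, and 5 rose and 2 fell at D28 against D10. Enpp3, an ectonucleotidase related to Enpp1, had means of 7.33, 5.99, 5.27 and 10.64 at D7, D8, D10 and D28. Enpp3 fell by 2.06 to D10 (standard error 0.24, adjusted p = 6.7e-06, limma) and rose by 5.37 from D10 to D28 (adjusted p = 1.16e-10). Its D28 libraries lay above all others, whereas the Enpp1 levels of D10 and D28 overlapped. Panx3, a channel that releases ATP in maturing chondrocytes and osteoblasts, fell by 1.43 at D8 (adjusted p = 0.00282) and rose by 3.70 from D10 to D28 (adjusted p = 6.08e-08, limma). Nt5e, which turns AMP into adenosine and phosphate, fell by 2.33 at D28 against D7 (adjusted p = 1.73e-07), and Panx1, another ATP channel, by 2.66 (adjusted p = 1.34e-07, limma). Abcc6 was called in some comparisons at levels no higher than the highest level of 3 reads among the libraries (2.87), where no fold is given.

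Of 6 matrix vesicle genes, 2 fell at D10 against D7 and 0 rose. Smpd3, a sphingomyelinase needed for skeletal mineralization, had means of 11.72, 11.64, 8.68 and 12.51, and fell by 3.04 at D10 against D7 (standard error 0.24, adjusted p = 1.5e-07, limma). It rose by 3.83 from D10 to D28 (adjusted p = 4.98e-09), and its lowest point was that of Alpl, D10. Enpp6, an ectoenzyme that yields phosphocholine, held at most 1 read in each library before D28 and 8 to 19 at D28, at least 1.19-fold higher.

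Among phosphate transporters, Slc34a1, Slc34a2 and Slc34a3 did not pass the filter, with at most 4 reads in any library. Xpr1, the phosphate exporter, and Slc25a3, the mitochondrial phosphate carrier, were not called in any comparison. Xpr1 stayed between 10.01 and 10.38 in the 12 libraries.

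Of 9 tested genes of the FGF23 and vitamin D axis, 2 rose and 2 fell at D10 against D7, and 3 rose and 1 fell at D28 against D10. Fam20c, the kinase that phosphorylates secreted matrix proteins, had means of 10.14, 11.90, 12.41 and 10.41. It rose by 1.76 at D8 (standard error 0.10, adjusted p = 7.56e-08, limma) and by 2.27 at D10 against D7 (adjusted p = 7.37e-10), and its order of time points was that of Ank. Dmp1 rose by 2.06 at D8 (adjusted p = 0.00448) and by 3.17 at D10 (adjusted p = 4.96e-05, limma). Vdr, the vitamin D receptor, fell by 1.63 at D8 and by 3.01 at D10 against D7 (adjusted p = 3.53e-09) and had means of 9.51, 7.88, 6.49 and 10.18. Cyp24a1, which inactivates vitamin D, held at most 3 reads in each library before D28 and was at a mean of 13.53 at D28, at least 1611-fold higher. Mepe held at most 3 reads in each D10 library and 15 to 39 at D28, at least 2.12-fold higher. Kl, the FGF23 co-receptor, was not tested, with at most 1 read in any library.

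Of 6 mineral-binding inhibitors and their processing genes, 1 rose and 2 fell at D10 against D7, and 3 rose and 0 fell at D28 against D10. Ucma, a Gla-rich cartilage protein that is carboxylated like MGP, had means of 13.33, 13.09, 11.29 and 15.54. Ucma fell by 1.80 from D8 to D10 (adjusted p = 4.37e-05, limma) and rose by 4.25 from D10 to D28 (standard error 0.22, adjusted p = 5.33e-10). Both Ucma and Mgp were highest at D28, but only Ucma was lower at D10 than at D8 past the threshold, and the difference between these changes was not tested. Spp1, osteopontin, rose by 1.10 at D8 (adjusted p = 0.018) and by 2.15 at D10 against D7 (adjusted p = 4.35e-05, limma), with a mean of 18.92 at D10. Each D10 library held that same equalized value, as with Col2a1, so no spread of Spp1 was measured there. Fetub rose by 2.31 at D28 against D7 (adjusted p = 0.000784, limma).

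**Figure D4:**
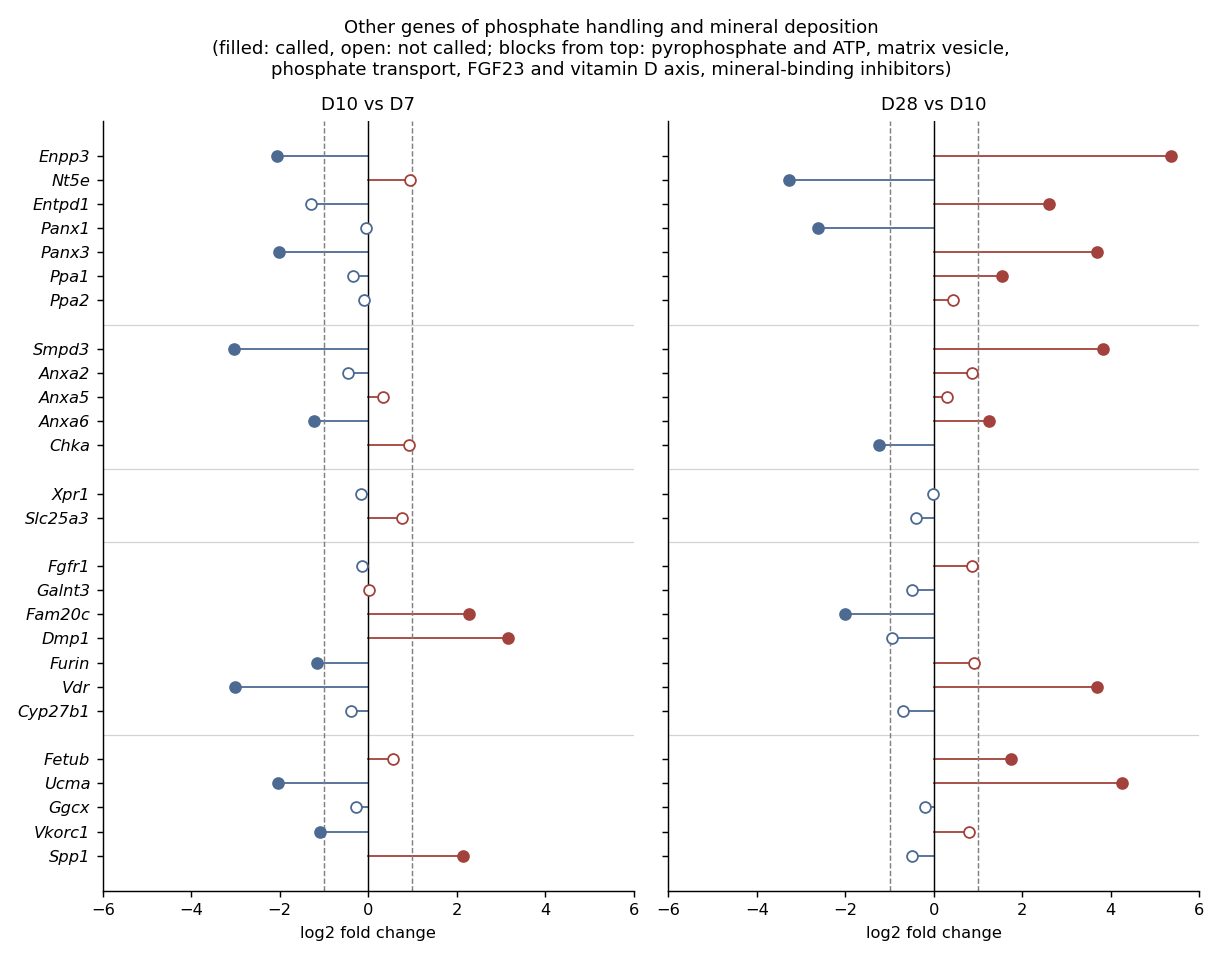
Log2 fold change (horizontal axis) of the other tested genes of phosphate handling and mineral deposition at D10 against D7 (left) and D28 against D10 (right), in blocks by role, with filled points for calls and dashed lines at 1 in each direction, leaving out 5 genes with a time point at or under 3 reads in each library. Smpd3, Vdr, Enpp3, Panx3 and Ucma lie on the left at D10 against D7 and on the right at D28 against D10.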

How the data were processed

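Poly(A) RNA was sequenced from 12 pellet libraries with strand-specific kits. The deposited unit is log2. The authors aligned reads with HISAT2, annotated them with Cufflinks, counted them per gene with HTSeq, equalized the counts between libraries and took the log2 of the value plus 1, and replicates were not pooled. The submitters' processing notes name Trimmomatic 0.36 and GRCm38, while the supplementary methods name a human build. The file lists mouse symbols, and positions are those of GENCODE M21 (GRCm38). Equalization gave all libraries nearly the same distribution, so changes are relative to the other genes of a library. Read levels were recovered as the order of the distinct low values of a library, with a floor of 3 reads (at most 2.87 on the log2 scale), and intervals on them cover counting error only.

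A gene was tested if 3 or more libraries reached a log2 value of 1, which left 17674 of 28244. The limma package (3.58.1, R 4.3.3) fitted 1 mean per time point over all 12 libraries, a variance trend and two-sided moderated p-values (residual degrees of freedom 8, prior 7.23). The fit was tested on simulated data. Other steps used Python 3.11.15. Alternatives covered the filter, scaling, pseudocount, low values, replicate block, test, fold threshold and each library left out.

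Members, gene lists and tests were chosen with earlier results of these data known. All members were named, with at most 6 called genes of the other lists per comparison and the 3 genes most like each member.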

Additional observations from a re-analysis of the deposited data

How the results depend on the processing

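Of 19 calls on members, 13 held under every alternative other than a log2 fold change of at least 2. With the adjusted p and no fold threshold, the members called numbered 5 at D8 against D7, 7 at D10 against D7, 3 at D10 against D8 and 6 at D28 against D7, where 21.0%, 41.2%, 28.8% and 37.3% of all genes tested were called. With a log2 fold change of at least 2 they numbered 0, 2, 1 and 1, then 2 at D28 against D8 and 3 at D28 against D10, beside 2.20%, 7.59%, 3.01%, 7.67%, 8.80% and 11.9% of all genes. With each library left out in turn, the counts ran from 1 to 2 at D8 against D7, 4 to 6 at D10 against D7, 1 to 2 at D10 against D8, 2 to 4 at D28 against D7, 2 to 4 at D28 against D8 and 4 to 5 at D28 against D10. The count of 1 at D8 against D7 came without D7 replicate 3, and the count of 2 at D28 against D8 without D28 replicate 3. The count of 2 at D10 against D8 came without D8 replicate 2, D10 replicate 2 or D10 replicate 3. Some changes that were not called turned sign when a library was left out. They were Phospho1 at D28 against D7 (-0.46 to 0.0077), Enpp1 at D28 against D10 (-0.11 to 0.12), Phex at D28 against D10 (-0.22 to 0.64) and Mgp at D10 against D8 (-0.38 to 0.45). Of the other 31 genes, 6 were called at D8 against D7 and 1 with the larger fold, 4 at D10 against D8 and 1 with it or 10 with no fold threshold, and 11 at D28 against D7 and 18 with no fold threshold.

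The same-numbered libraries of different time points had deviations that correlated between -0.06 and 0.07, so the numbers were not taken as pairs. In addition, 0 libraries correlated best with their own number at every other time point at once, a strict count that could miss weak pairing. With the replicate block, the members called numbered 2, 4, 1, 3, 4 and 5 in the 6 comparisons, equal to those without it. Under median-of-ratios scaling, the median shift in log2 fold change over all genes was 0.11 at D28 against D8 and 0.13 at D28 against D10. That scaling turned the direction of no member. Depth limits Fgf23, Phex and Phospho1, which rest on 0 to 130 reads per library. The labels name no batch or date. The causes of the lost calls were not tested.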
